A study of Mus musculus with 16 samples.

Results

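The comparison set the liver of each of 4 HdhQ111/+ mice against the brain of the same animal. HdhQ111 is a knock-in allele that lengthens the CAG repeat of the mouse huntingtin gene (Htt), the gene whose expanded human form causes Huntington's disease. The mice were heterozygous males on the C57BL/6J background, aged 18 weeks. Each RNA was hybridised on a 2-colour array against RNA pooled from 4 wildtype C57BL/6J males of that age, and the labels list the same wildtype mice for the brain pool and the liver pool. All 16 arrays of the series entered the comparison, 8 from brain and 8 from liver. Dyes were exchanged between the 2 arrays of a tissue from one animal, and their mean was that animal's value for the tissue. The brain value was then subtracted from the liver value, which left 4 differences per gene, and these were tested against 0. A positive difference means that the ratio of mutant to pool was higher in liver than in brain of the same animal.

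Huntingtin is made in nearly every cell, so a mutant allele can act in liver as well as in neurons, and a knock-in keeps it under the gene's own promoter. Genes of the respiratory chain, the ribosome and the proteasome are used by both tissues, whereas pituitary hormones, synaptic proteins and most plasma proteins are made by few cell types. The wildtype pool of a tissue was a single control sample, so the tests leave out the spread among wildtype mice, and anything peculiar to a pool is shared by all 4 mice. The deposited values are ratios without spot brightness. The labelled tissues therefore could not be checked against marker levels, and signal over background is unknown.

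Each array held 19530 to 20584 values for 20794 rows. Dye-exchanged arrays of one mouse and tissue correlated at -0.086 to -0.263 (Pearson, 18719 to 20377 rows), so a value from a single dye orientation is a weak measure of the genotype. The differences between the dyes of a pair resembled each other across tissues (Spearman's rho 0.42 over 15077 rows). The spread of the mouse values over genes was uneven in liver, with an SD of 0.53 in mouse 1 and 0.22 in mouse 4, and lay between 0.38 and 0.47 in brain. No source states the log base, the sign or the centring of the ratios. They are treated here as log2 of HdhQ111 over wildtype, which is the likely direction. Gene symbols sit 11 rows away from the values, as described under the processing, and every gene named here carries that assumption.

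The 3 largest liver-minus-brain differences among the genes tested belonged to pituitary hormones. Pomc, which encodes the precursor of corticotropin and of the melanocyte-stimulating hormones, and Prl, which encodes prolactin, were the 2 genes that passed an adjusted p of 0.05 among 8401 tested (0.0238%). The same pair passed among 18566 probes (0.0108%). Both were far from the wildtype pool in brain and near it in liver. In the likely direction of the ratios they were 6.74- and 19.5-fold below the pool in brain; with the sign turned, they would be above it by the same factors, and every direction given here would turn with them. The pituitary lies under the hypothalamus, outside the brain proper, and the labels do not say whether it was left on the tissue. In bulk RNA, fewer cells of a type and less RNA per cell cannot be told apart.

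Pomc in brain was at -2.92, -1.99, -2.94 and -3.16 in mice 1 to 4, and in liver at 0.13, 1.11, 0.02 and -0.06. The tissues did not overlap, and in mouse 2, whose liver value was the highest, the brain value was the highest as well. The 4 differences therefore lay close together, at 3.05, 3.10, 2.96 and 3.10. Their mean was 3.05 ± 0.06 (SD, n = 4 mice), an 8.29-fold gap between the tissue ratios. The 95% interval ran from 2.71 to 3.39, and the adjusted p was 0.00236 (limma, Benjamini-Hochberg). The liver value of mouse 2 rested on arrays that disagreed, at -0.23 with the mutant RNA in Cy5 and 2.44 with it in Cy3. In brain, the Cy5 and Cy3 arrays read -1.27 and -2.72 in mouse 2 and -3.80 and -2.51 in mouse 4. The small SD is therefore one of pair means, and the arrays within these pairs lay much further from each other. With one dye orientation alone the difference was 2.73 (Cy5, adjusted p = 0.647) or 3.37 (Cy3, adjusted p = 0.386, limma), so the call was made only with both orientations averaged.

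Prl in brain was at -3.97, -4.38 and -4.49 in mice 2 to 4. Mouse 1 lacked a pair mean, since its Cy5 array held no value, and its Cy3 array read -4.14. In liver, Prl was at 0.67, 0.06, 0.30 and -0.06. The 6 brain arrays of mice 2 to 4 all lay between -3.18 and -4.84, and no liver array was below -0.18. The mean difference was 4.38 ± 0.33 (SD, n = 3), with a 95% interval from 3.86 to 4.91 and an adjusted p of 0.00792 (limma). With values over 10 in size kept, that adjusted p became 0.0633. On the Cy5 arrays alone the difference was 4.05 (adjusted p = 0.647) and on the Cy3 arrays alone 4.86 (adjusted p = 0.00701). Without mouse 2, 3 or 4, fewer than 3 differences remained and Prl could not be tested.

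Gh encodes growth hormone, the main product of the pituitary's somatotroph cells. Its brain values were -4.86, -2.29, -5.06 and -5.20, and its liver values were -0.12, -0.40 and -0.06 in mice 2 to 4. The liver of mouse 1 was left out because its Cy3 array held a value over 10 in size. Brain and liver did not overlap, yet mouse 2 stood apart, because its brain arrays read -3.91 and -0.68. The mean difference of 3.99 ± 1.60 (n = 3) had an adjusted p of 0.685 (limma). With the value over 10 in size kept, it was 2.22. On the Cy5 arrays alone it was 4.59 with an adjusted p of 0.0231, and on the Cy3 arrays alone 3.41 with 0.405.

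Cga encodes the alpha subunit shared by thyrotropin and the gonadotropins. It was at -1.33, -1.13, -1.77 and -2.23 in brain, against 0.11, 0.11, -0.19 and 0.17 in liver. Every brain pair mean lay below every liver pair mean. The brain arrays of mouse 2 disagreed, at -2.49 (Cy5) and 0.24 (Cy3), and the higher lay above some single liver arrays. The mean difference was 1.67 ± 0.51 (n = 4), with an adjusted p of 0.429 (limma). Tshb, the beta subunit that makes thyrotropin specific, differed by 0.37 ± 0.23 (adjusted p = 0.685).

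**Figure D1:**
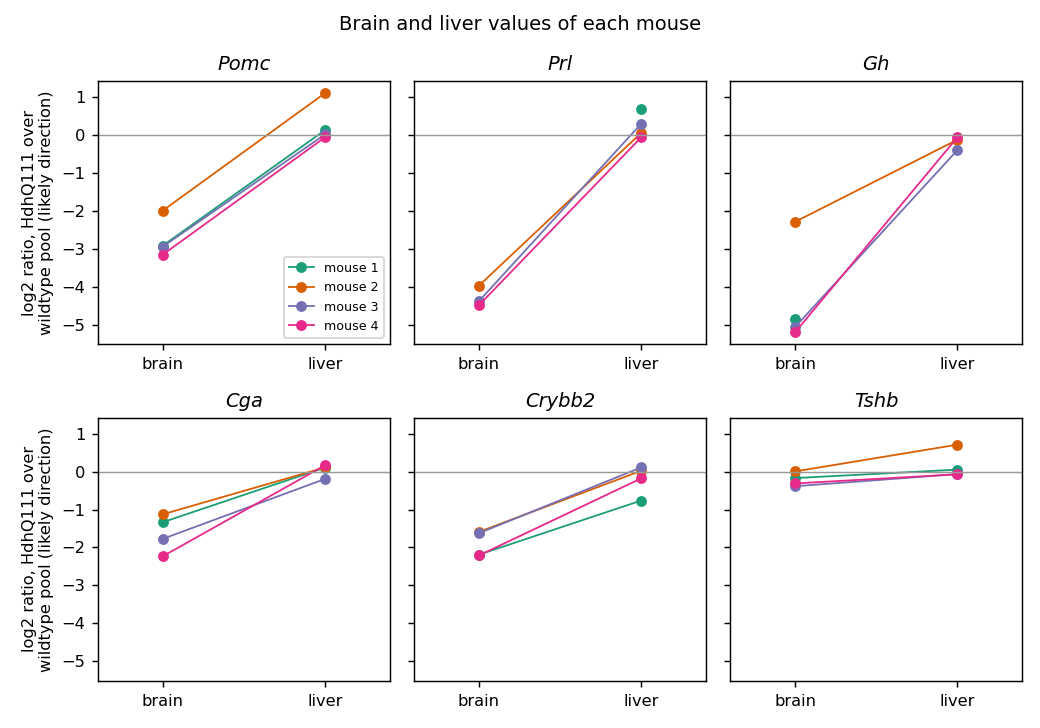
Log2 ratio of HdhQ111 over the wildtype pool (vertical axis) in brain and liver for 6 genes; each point is one mouse, the mean of its dye-exchanged arrays, and lines join the tissues of a mouse. Brain values of Pomc, Prl, Gh, Cga and Crybb2 lie below the liver values of the same mice, the lines of Pomc run nearly parallel, and Tshb shows the same order at a smaller distance, with brain values from -0.39 to 0.01 and liver values from -0.07 to 0.71.

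The stretches just before the start sites of Pomc, Prl and Cga are shown because these genes had large differences in the same direction. They are from RefSeq on GRCm38.p6, and each holds the 250 bases before the annotated start on the plus strand. The windows are chr12:3954695-3954944 for Pomc, chr13:27057320-27057569 for Prl and chr4:34893529-34893778 for Cga. Capitals mark matches on either strand to TATAAA (the TATA box), to ATGNATA (the core of the site bound by Pit-1, the pituitary factor encoded by Pou1f1) and to TGANGTCA (the cyclic AMP response element with any middle base). In Prl, matches to TATAAA on opposite strands overlap.
Pomc: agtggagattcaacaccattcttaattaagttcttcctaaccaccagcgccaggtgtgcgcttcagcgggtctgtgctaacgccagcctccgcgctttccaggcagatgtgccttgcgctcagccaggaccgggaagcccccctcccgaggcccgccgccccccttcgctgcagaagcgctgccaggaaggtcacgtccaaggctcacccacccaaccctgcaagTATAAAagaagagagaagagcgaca
Prl: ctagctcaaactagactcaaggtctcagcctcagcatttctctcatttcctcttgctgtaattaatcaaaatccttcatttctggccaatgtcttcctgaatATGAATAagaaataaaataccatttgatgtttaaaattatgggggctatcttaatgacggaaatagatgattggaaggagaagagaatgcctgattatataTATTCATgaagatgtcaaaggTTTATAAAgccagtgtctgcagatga
Cga: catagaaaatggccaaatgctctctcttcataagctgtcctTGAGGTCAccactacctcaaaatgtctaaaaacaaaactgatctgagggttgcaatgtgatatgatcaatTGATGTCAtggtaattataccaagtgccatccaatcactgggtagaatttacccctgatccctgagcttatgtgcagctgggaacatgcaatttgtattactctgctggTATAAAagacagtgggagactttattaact

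All 3 windows held TATAAA, which 12.4% of 32851 windows of this length held. ATGNATA was in the Prl window at 2 places, beginning at -148 and -47 (-1 is the base just before the start), and in 7.92% of all windows. TGANGTCA was in the Cga window, beginning at -209 and -139, and in 7.49% of all windows.

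The rest of the pituitary list was not uniform. Of 24 genes listed, 10 were tested, 6 with a difference above 0 and 4 (40%) below, beside 57.6% of all genes. The list median was 0.33 against -0.05 for all genes tested. Nr5a1, the gonadotroph and adrenal factor SF-1, was at 0.29 ± 0.66, and its 3 probes disagreed in sign. Drd2, the dopamine receptor that restrains prolactin release and is also abundant in striatum, was at -0.05 ± 0.83. It has 3 probes, and the only value from a probe tested alone was -0.41. Chga (chromogranin A, a secretory granule protein) was at -0.01 ± 0.23 and Crhr1 (the corticotropin-releasing hormone receptor) at -0.13 ± 0.27. Gata2, a factor of gonadotrophs and thyrotrophs, was at -0.75 ± 0.35 in 3 mice with an unadjusted p of 0.0148, and that value joins probes measured in different tissues. Besides the hormones named above, the members named here lay between -0.75 and 0.29.

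Crybb2 encodes beta-crystallin B2, a structural protein of the eye lens. Its brain values were -2.19, -1.59, -1.62 and -2.21, and its liver values -0.76, 0.03, 0.11 and -0.18, again without overlap of these pair means. The liver arrays of mouse 1 disagreed, at -1.75 (Cy5) and 0.23 (Cy3). The lower lay below some single brain arrays, the highest of which read -0.97. The difference of 1.70 ± 0.25 (n = 4) just missed the threshold (adjusted p = 0.0804, limma). Tshb, Cga, Prl, Crybb2 and Crygs follow each other in the deposited rows, and Crygs, another crystallin, was at 0.19 in brain and 0.04 in liver. Cryba1, which encodes another lens protein, differed by 1.07 ± 0.13 in 3 mice (adjusted p = 0.685). Over the 11 crystallin genes tested, the median was -0.01. The rows beside Pomc and Gh had brain means between -0.41 and 0.41 where measured. Whether neighbouring rows share signal was not tested.

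No other gene passed. Of the genes tested, 57.6% had a mean difference below 0. At an unadjusted p under 0.05, 226 genes had a difference above 0 (2.69%) and 370 below it (4.4%). Among 7435 genes with all 4 differences, 364 were above 0 in every mouse (4.9%) and 1006 below 0 in every mouse (13.5%). The median of all genes was -0.05, and by mouse it was 0.02, -0.05, -0.15 and -0.05. A shift of this kind can come from centring, so list medians are given beside it. With each array centred on its median, the median of all genes was -0.02. The balance of small p-values also depended on the dye. With the Cy5 arrays alone, 189 genes were above and 439 below 0, and with the Cy3 arrays alone 575 were above and 407 below.

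The genes with the next smallest p-values above 0 were all at an adjusted p of 0.685 (limma). Lmcd1, a LIM-domain cofactor of heart muscle, differed by 1.74, 2.08 and 1.28 in mice 1 to 3. Vamp8, a SNARE protein of regulated exocytosis, was at -2.10, -2.43 and -0.90 in the brains of mice 2 to 4 and between -0.33 and 0.14 in the 4 livers. Cavin4, a caveola protein of muscle, differed by 0.79 ± 0.22, with both of its probes above 0 (0.56 and 0.86). S100a8, a calcium-binding protein of neutrophils, was at 2.44, 0.64, 0.17 and 0.89 in liver and -0.25 ± 0.36 in brain. Its difference of 1.28 ± 0.67 turned to -0.15 on the Cy5 arrays alone. Ceacam2, an adhesion molecule, differed by 1.05 ± 0.23 in 3 mice, and by -1.26 once values over 10 in size were kept. Phf24 differed by 0.91 ± 0.36, although neither of its probes had 3 differences of its own.

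On the other side, Slc51a, one chain of the bile acid exporter OST, gave the smallest p. It was at 0.86, 0.97, 0.66 and 1.03 in brain and at -0.07, -0.37, -0.11 and 0.03 in liver. The brain values all exceeded the liver values, and the difference was -1.01 ± 0.24 (adjusted p = 0.685, limma). Ebp, a sterol isomerase late in cholesterol synthesis, was at 0.00, 0.83, 1.01 and 0.47 in brain and -0.59, -0.36, 0.15 and -0.43 in liver, a difference of -0.89 ± 0.24. Slc38a4, an amino acid transporter of hepatocytes, differed by -0.74, -0.75, -1.55 and -1.34. Stk39, the kinase SPAK that acts on chloride cotransporters, differed by -1.16 ± 0.45, and Lin7b, a synaptic scaffold protein, by -1.09 ± 0.53. Pdcd6, a calcium-binding protein of membrane traffic, had brain values of 0.36, 0.36, 0.09 and 0.33 and liver values of -0.23, -0.40, -0.43 and -0.38. Mgmt, which repairs alkylated guanine, differed by -0.73 ± 0.23, but its probes ranged from -1.44 to -0.25. Ttc41, Oaz3, Kmt5b, Rnf122 and Limd1 completed the 12 smallest p-values below 0, with differences of -1.05, -1.45, -0.87, -1.01 and -1.35.

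**Figure D2:**
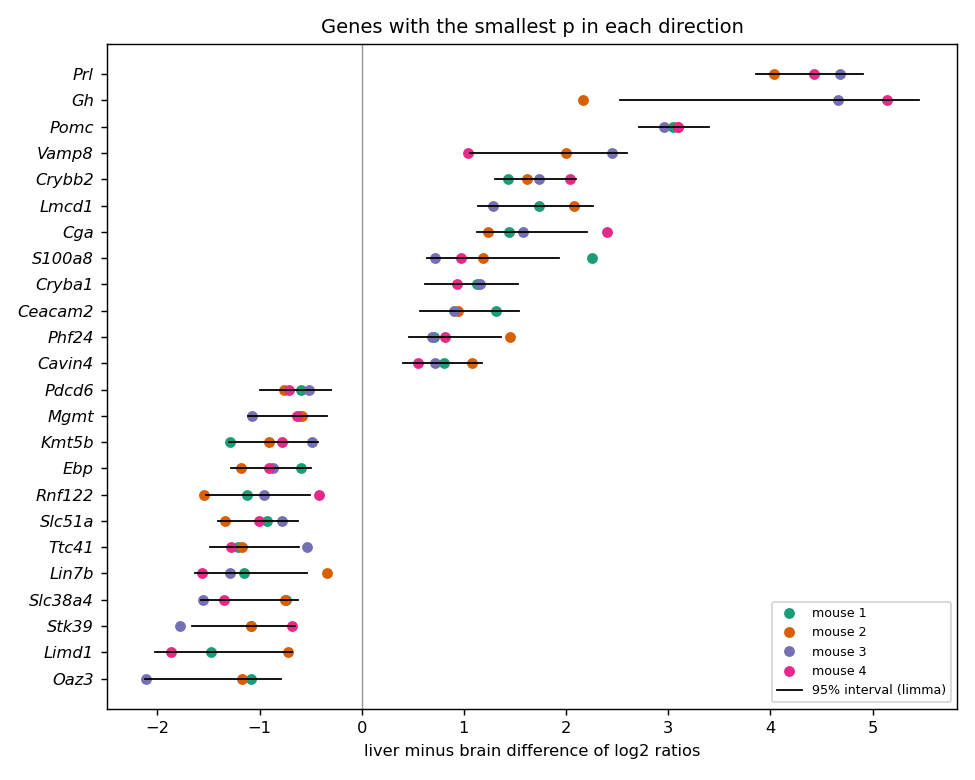
Liver-minus-brain difference of log2 ratios (horizontal axis) for the 12 genes with the smallest p in each direction; points are mice and lines the 95% limma intervals. Pomc and Prl are the 2 genes that passed the adjusted threshold; the points of Pomc nearly coincide, while those of Gh run from 2.17 to 5.14.

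Genes of oxidative phosphorylation had small differences that pointed one way. Of 67 tested, 63 (94%) were below 0, beside 57.6% of all genes, with a median of -0.25. By mouse the list median was -0.10, -0.40, -0.50 and -0.14, against 0.02, -0.05, -0.15 and -0.05 for all genes. None of the 67 passed the adjusted threshold (limma), 14 (20.9%) had an unadjusted p under 0.05 below 0, beside 4.4% of all genes, and 1 above it. Among the 63 with all 4 differences, 34 (54%) were below 0 in every mouse, beside 13.5% of all genes. Of the 67, 25 lay among the 2101 of 8401 genes with the smallest SD of differences, of which 30.3% of those with 4 differences were below 0 in every mouse. The median ratio of the list was 0.09 in brain and -0.18 in liver, beside 0.02 and -0.03 for all genes.

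The brain part of that difference was not present in every animal. In brain the list medians by mouse were -0.12, 0.07, 0.36 and 0.10, and in liver -0.24, -0.32, -0.16 and -0.01. Over all genes, the medians were -0.10, 0.01, 0.15 and 0.04 in brain and -0.07, -0.04, -0.02 and -0.00 in liver. In the list, mouse 1 was below 0 in both tissues, mice 2 and 3 had opposite signs, and mouse 4 was near 0 in liver. The brain median of the list in mouse 1 was near that of all genes, and the brain medians of all genes had the same signs by mouse. In 53 of the 67 genes (79.1%) the brain mean was above 0 and the liver mean below it, beside 33% of all genes tested. That arrangement held in all 4 mice for 3 of the 63 genes, beside 0.995% of all genes. The reverse arrangement held in all mice for 0.336% of all genes and for none of these 63.

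All 5 complexes of the chain had medians below 0. Complex I, which takes electrons from NADH, was at -0.21 over 31 genes. Complex II (succinate dehydrogenase) was at -0.22 over 4, and Sdhb, its iron-sulphur subunit, differed by -0.11, -0.57, -0.47 and -0.37. Complex III was at -0.28 over 8, including Cyc1 (cytochrome c1) at -0.37 ± 0.18 and Uqcrh at -0.49 ± 0.32. Complex IV (cytochrome c oxidase) was at -0.31 over 10, all of them below 0. Its member Cox7c had the lowest mean of the list, -0.63 ± 0.63, which came from mice 2 and 3 at -1.36 and -0.95. Complex V (ATP synthase) was at -0.34 over 14. Atp5e was at 0.16, -0.06, 0.40 and 0.33 in brain and -0.42, -0.58, -0.26 and 0.06 in liver, a difference of -0.50 ± 0.17. Atp5k differed by -0.43, -0.47, -0.81 and -0.33. The 4 genes above 0 were Ndufaf3 and Ndufaf7, which help assemble complex I, with 0.48 and 0.20, and the ATP synthase subunits Atp5a1 and Atp5d with 0.13 and 0.03. The division by complex was made after values of the list were seen.

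Cytosolic ribosomal proteins had nearly the same profile. Of 59 tested, 55 (93.2%) were below 0, beside 57.6% of all genes, with a median of -0.23 and mouse medians of -0.14, -0.34, -0.47 and -0.12. Of the 58 with all 4 differences, 30 (51.7%) were below 0 in every mouse, beside 13.5% of all genes, and none above it. Of the 59, 26 lay among the 2101 genes with the smallest SD, where that share was 30.3%. No member passed the adjusted threshold, and 11 (18.6%) had an unadjusted p under 0.05 (limma), all below 0, beside 4.4% of all genes. Large-subunit genes had a median of -0.21 and small-subunit genes of -0.26. Rpl8 was at -0.04, 0.13, 0.24 and 0.09 in brain and -0.27, -0.52, -0.41 and -0.63 in liver. Its difference was -0.56 ± 0.23, with 3 probes between -0.85 and -0.38. Rps16 was at 0.08, 0.20, 0.67 and 0.32 in brain and -0.22, -0.28, 0.08 and 0.02 in liver. Mouse 3 had the highest brain ratio of Rps16 and also the highest liver ratio. Rplp2, a protein of the ribosomal stalk, differed by -0.33, -0.38, -0.75 and -0.42. The highest of the list was Rpl22l1, a paralogue of Rpl22, at 0.27 ± 0.59. As with other multigene families, probes for ribosomal proteins can also detect pseudogenes.

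**Figure D3:**
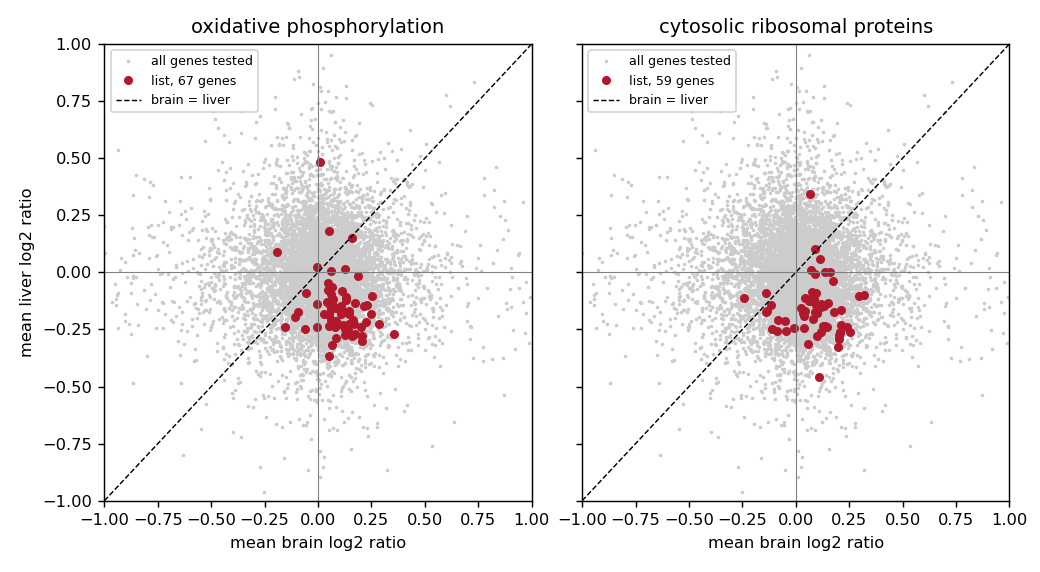
Mean brain log2 ratio (horizontal axis) against mean liver log2 ratio (vertical axis) for all genes tested (grey) and for 1 list in each panel (red); the dashed line marks equal ratios. Most red points lie below the dashed line and at the lower right, 53 of 67 for oxidative phosphorylation and 42 of 59 for ribosomal proteins. Of all genes tested, 33% lie at the lower right, and 37 genes with a mean over 1 in size lie outside the axes.

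Other housekeeping lists had medians below 0 with smaller shares of genes below 0, to be set beside 57.6% of all genes. The proteasome, which degrades ubiquitinated proteins, had 29 of 39 genes (74.4%) below 0 and a median of -0.19. Its mouse medians were 0.07, -0.29, -0.42 and -0.14, so mouse 1 was on the other side. The 17 core-particle genes had a median of -0.20, with Psmb3 at -0.49 ± 0.32 and the immunoproteasome subunit Psmb10 at -0.49 ± 0.26. For the 15 regulatory-particle genes it was -0.06. Chaperones had 46 of 69 (66.7%) below 0 with a median of -0.15, translation factors 29 of 41 (70.7%) with -0.14, and mitochondrial ribosome and import genes 54 of 74 (73%) with -0.11. The share of chaperones is near that of all genes. Hspa1a, an inducible heat shock protein, differed by -1.94, -0.74 and -0.33 in mice 2 to 4. Mrps7, a mitochondrial ribosomal protein, went against its list, at -0.35, -0.44, -0.63 and -0.61 in brain and 0.43, 0.12, 0.01 and -0.14 in liver. Its difference of 0.61 ± 0.13 was above 0 in all 4 mice (adjusted p = 0.685, limma).

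Among the metabolic lists, the tricarboxylic acid cycle had 12 of 15 genes (80%) below 0, beside 57.6% of all genes. Its median was -0.27, with mouse medians of -0.25, -0.30, -0.30 and -0.15. Mdh2 (mitochondrial malate dehydrogenase) differed by -0.25, -0.30, -0.40 and -0.44. Suclg1, a subunit of succinyl-CoA ligase, differed by -0.44 ± 0.17, outside the range of its probes tested alone (-0.42 to -0.22). Cholesterol synthesis had 9 of 11 genes (81.8%) below 0 and a median of -0.33, and its mouse medians were 0.03, -0.23, -0.33 and -0.49. Fdps, which makes farnesyl diphosphate, was at -0.11, 0.14, 0.47 and -0.00 in brain and -0.30, -0.88, -0.39 and -1.05 in liver. The difference was -0.78 ± 0.40, smallest in mouse 1. Dhcr7, the last enzyme of the pathway's Kandutsch-Russell branch, differed by -0.36 ± 0.15. Glutathione and oxidative stress genes had 13 of 19 (68.4%) below 0 and a median of -0.18. Sod1, the cytosolic superoxide dismutase, was at -0.05, 0.07, 0.63 and 0.28 in brain and -0.38, -0.55, -0.32 and -0.18 in liver. No member of these lists passed the adjusted threshold (limma), and 2 (13.3%), 3 (27.3%) and 5 (26.3%) members had an unadjusted p under 0.05, all below 0, beside 4.4% of all genes. These lists are short, so each share rests on few genes.

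Interferon response and antigen presentation genes had 17 of 21 (81%) below 0, beside 57.6% of all genes. The list median was -0.26, which was -0.10 on the Cy5 arrays and -0.40 on the Cy3 arrays. Of the 21 genes, 5 (23.8%, beside 4.4% of all genes) had an unadjusted p under 0.05, all below 0, and none passed the adjusted threshold (limma). Tap1, the peptide transporter that loads class I molecules, was at 0.01, -0.09, 0.61 and -0.09 in brain and -0.19, -0.68, -0.41 and -1.15 in liver. H2-K1, a class I heavy chain, differed by -2.17, -0.29, -0.96 and -0.39. Its probe may also detect other class I genes. Igtp, an interferon-induced GTPase, differed by -0.18, -0.66, -0.44 and -0.57. The list shares Psmb8, Psmb9 and Psmb10 with the proteasome list.

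**Figure D4:**
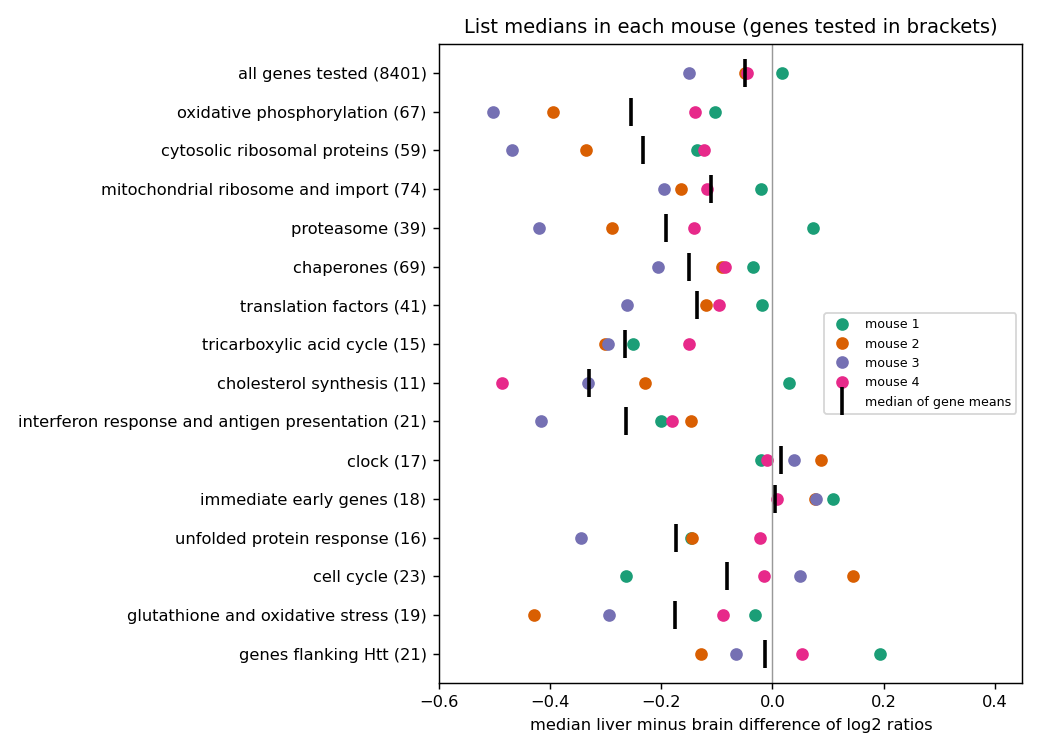
Median liver-minus-brain difference of log2 ratios (horizontal axis) for lists of genes used by both tissues; coloured points are mice and the black mark is the median of the gene means. All 4 mice lie below 0 and below the same mouse's median over all genes for oxidative phosphorylation, ribosomal proteins and the tricarboxylic acid cycle. The same holds for chaperones, translation factors, mitochondrial ribosome and import, interferon, and glutathione genes. Clock genes lie on both sides of 0, and immediate early genes lie above it in all 4 mice, between 0.01 and 0.11.

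Clock, immediate early and Htt-flanking genes had medians between -0.01 and 0.02. Clock genes had a median of 0.02, and Per1, Per2 and Per3, the period genes of the negative limb, differed by 0.17 ± 0.14, -0.07 ± 0.17 and -0.15 ± 0.39. Dbp, a clock output factor, was at -0.26 ± 0.59, with mouse 4 at 0.52 and mice 1 to 3 at -0.54, -0.84 and -0.18. Hlf differed by 0.68 ± 0.46, but 1 of its 2 probes could be tested alone and gave -0.11. Immediate early genes had a median of 0.00 with 9 of 18 genes on each side, and mouse medians of 0.11, 0.08, 0.08 and 0.01. Genes flanking Htt on its chromosome could carry sequence from the strain in which the allele was made. Their median was -0.01, with 10 above and 11 (52.4%) below 0, beside 57.6% of all genes. Nelfa and Stk32b, both above 0, had unadjusted p-values of 0.0336 and 0.042 (limma). They were the only 2 of the 21 under 0.05, beside 2.69% of all genes above 0 and 4.4% below. The probes of Nelfa ranged from -0.12 to 1.56, and Stk32b was at 1.70, 0.40 and 0.40 in mice 2 to 4. Htt itself is not analysed here. The cell cycle list was at -0.08. The unfolded protein response was at -0.17, with 11 of 16 genes (68.8%) below 0, beside 57.6% of all genes. Neither list held a member with an unadjusted p under 0.05 (limma).

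Liver-type lists gave medians below 0 over the mice together, and several of them changed with the dye or the mouse. Cytochrome P450 and conjugation enzymes had 28 of 39 genes (71.8%) below 0, beside 57.6% of all genes. Their median was -0.20, which was 0.00 on the Cy5 arrays and -0.44 on the Cy3 arrays. Hepatocyte secreted proteins were at -0.10, with 0.37 and -0.40 by dye. Urea cycle and amino acid catabolism was at -0.16, with 0.11 and -0.35. Bile acid genes were at -0.31, with 0.11 and -0.43. Lists of genes used by both tissues also moved with the dye, with mitochondrial ribosome and import at -0.23 and -0.04, chaperones at -0.22 and -0.09 and ribosomal proteins at -0.32 and -0.19, while oxidative phosphorylation was at -0.32 and -0.29. Fatty acid oxidation and PPAR alpha targets had 20 of 23 (87%) below 0 and a median of -0.24 (-0.15 and -0.41 by dye). Fatty acid and triglyceride synthesis was at -0.16 (-0.04 and -0.20 by dye) and glucose metabolism at -0.16 (-0.22 and -0.09). Male-biased liver genes were at -0.12 (0.08 and -0.58) and female-biased ones at -0.08 (-0.17 and -0.06). By mouse, hepatocyte secreted proteins were at -0.28, 0.01, 0.12 and 0.05. Male-biased genes were at -0.30, -0.17, 0.24 and 0.03 in mice 1 to 4. Fatty acid and triglyceride synthesis was at 0.07 in mouse 1 and below 0 in the others. The remaining liver-type lists had a median below 0 in every mouse. The difference between the dyes was not tested.

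Cyp7b1, an oxysterol hydroxylase expressed more in male than in female liver, had close values. It was at 0.00, 0.17, 0.40 and -0.04 in brain and -0.42, -0.51, -0.36 and -0.62 in liver, with a difference of -0.61 ± 0.15 (adjusted p = 0.685, limma). Acads, which begins the oxidation of short-chain fatty acids, differed by -0.63, -0.66, -0.24 and -0.51. Acaa1a, a peroxisomal thiolase, differed by -0.17, -0.96, -0.82 and -0.39. Arg1 (arginase) had a difference of -0.43 ± 0.13, although its probes gave -0.76 and -0.10. Pnpla2, the triglyceride lipase ATGL, was at 0.83, 0.56, 0.18 and 0.40 in liver and 0.08, -0.71, -0.17 and 0.04 in brain. Alb (albumin) was within 0.10 of 0 in all 4 livers, and its difference of 0.14 ± 1.28 reflected brain values from -1.83 to 1.08. Mat1a, the hepatic methionine adenosyltransferase, likewise had its widest values in brain, with -2.19 in mouse 3.

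**Figure D5:**
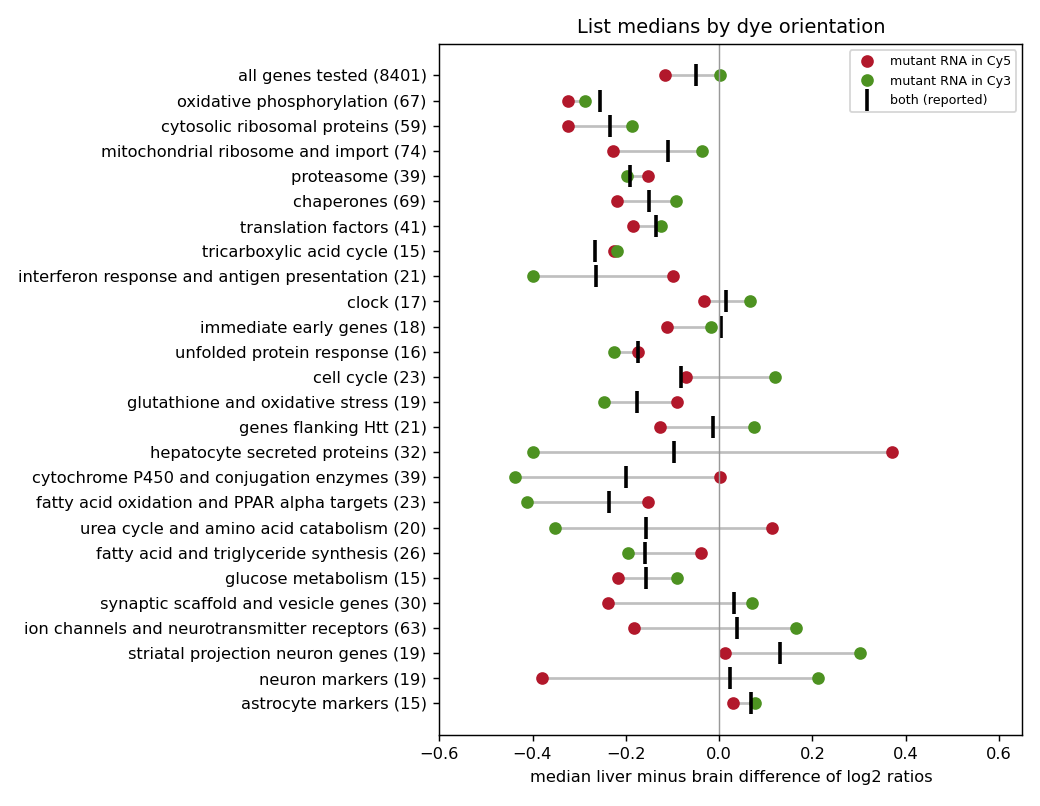
Median liver-minus-brain difference of log2 ratios (horizontal axis) by list, from the arrays with mutant RNA in Cy5 (red), in Cy3 (green) and from both (black mark), for lists with at least 15 genes tested. The points of oxidative phosphorylation lie together at -0.32 and -0.29, while those of hepatocyte secreted proteins lie at 0.37 and -0.40 and those of neuron markers at -0.38 and 0.21.

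Neuronal and glial lists had medians near 0 over the mice together, with wider values by mouse and dye. Synaptic genes had a median of 0.03, ion channels and neurotransmitter receptors of 0.04, neuron markers of 0.02, astrocyte markers of 0.07 and oligodendrocyte markers of 0.03. Neuropeptides outside the pituitary were at -0.02 and choroid plexus markers at 0.01. Oligodendrocyte markers were at 0.73, -0.08, -0.27 and -0.16 in mice 1 to 4, and astrocyte markers at 0.40, 0.08, -0.11 and 0.13. On the Cy5 and Cy3 arrays, neuron markers were at -0.38 and 0.21, synaptic genes at -0.24 and 0.07, ion channels and receptors at -0.18 and 0.16, and oligodendrocyte markers at -0.36 and 0.17. The striatal projection neuron list, whose cells are the most affected in Huntington's disease, had 14 of 19 genes above 0. The share below 0 was 26.3%, beside 57.6% of all genes. The list median was 0.13, with mouse medians of 0.27, 0.03, -0.06 and 0.18. On the Cy5 and Cy3 arrays it was 0.01 and 0.30. The median ratio of the list was 0.00 in brain and 0.06 in liver, so the brain median was not below the pool. Rgs9, a regulator of striatal dopamine signalling, was at -0.10, -0.14, -0.12 and -0.26 in brain and 0.07, 0.21, 0.34 and 0.10 in liver. Its difference of 0.33 ± 0.12 became -0.19 on the Cy5 arrays alone. Penk (proenkephalin) was at -0.33, -0.20, -0.23 and -0.20 in brain, and its liver values ran from -1.04 to 0.51. No member of these lists passed the adjusted threshold (limma). Of the unadjusted p-values under 0.05 above and below 0, synaptic genes had 2 and 1, ion channels and receptors 1 and 0, neuron markers 0 and 1, striatal genes 1 and 0, neuropeptides 1 and 0 (Chgb, a granule protein), and the glial lists none. The shares over all genes were 2.69% above and 4.4% below 0.

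Markers of other cell types were mixed. Macrophage and microglia markers had a median of -0.07, endothelial markers of -0.14, blood and erythroid genes of 0.02, lymphocyte markers of -0.08, and stellate cell and fibroblast markers of 0.01. Cholangiocyte markers were at -0.05 and pancreas markers at -0.15. Hba-a1 (alpha globin), measured by 6 probes, was at -0.15, -0.64, -0.18 and -1.75 in liver and -0.12, 0.06, 0.51 and -0.18 in brain. Its 4 differences were all below 0, and the largest came from mouse 4. It went against the blood and erythroid list, in which 11 of 17 genes were above 0. The share below 0 in that list was 35.3%, beside 57.6% of all genes. Msr1, a macrophage scavenger receptor, was at 0.20, -0.43, -0.60 and -1.20 in brain and 0.49, 0.26, 0.43 and 0.11 in liver, a difference of 0.83 ± 0.44 (adjusted p = 0.685, limma). Of the macrophage and microglia markers, 9 of 16 (56.2%) were below 0, near the share of all genes.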

How the data were processed

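Brain and liver RNA of 4 HdhQ111/+ mice was labelled indirectly with Cy3 or Cy5 after reverse transcription, per the labels' protocols. The log2 ratios deposited by the authors were used as given, and base 2 is assumed. Scanner, background correction and normalization are not given in the sources used here. Values over 10 in size (1496, the smallest 16.492, while no other value exceeded 8.297) were set to missing. A mouse value needed both dye-exchanged arrays. Probes of a gene were averaged per mouse and tissue. Differences from at least 3 mice were tested against 0 with limma 3.58.1 in R 4.3.3 (lmFit, eBayes, two-sided, 95% intervals), with Benjamini-Hochberg adjustment at 0.05, and the fit was tested on simulated data. Precision is limited by the number of mice, with 3 or 4 differences per test, each from arrays averaged in dye-exchanged pairs.

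The pairing is by animal, since the labels give both tissues the same mouse numbers. Deviations of brain and liver of one mouse correlated by 0.071, -0.0036, 0.10 and 0.024 (Spearman's rho, 15077 probes), and those of different mice by -0.0988 to 0.0726, so the data themselves do not show the pairing.

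Symbols came from the platform annotation (12771 probes with 1 symbol, 0 with several), and the symbol of probe number n names value row n + 11, which gave 12760 named rows and 9026 genes. No source states this offset. Over 121 offsets, same-gene probes lying 50 or more rows from each other had their highest correlation at 11 (0.10, against at most 0.061 elsewhere and 0.042 at 0). Probes of gene lists also had their smallest spread at 11 (median log2 SD relative to all of -0.60, against -0.28 at the lowest elsewhere). Both criteria come from these same data, so the list results are not independent of the naming.

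The members, gene lists and tests were chosen with earlier results of these data known. Named genes are the 12 smallest p-values in each direction, every called gene, the 3 smallest p-values in each list of genes used by both tissues and the 2 smallest in other lists, and a fixed set, from which the text takes part. Gata2, Chga, Crhr1, Crygs, Cox7c, Uqcrh, Rpl22l1, Ndufaf3, Ndufaf7, Atp5a1 and Atp5d were named after their values were seen. Alternatives changed the pairing, the size limit, centring, scaling, dye, mice, variance moderation and name offset.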

Additional observations from a re-analysis of the deposited data

Results flagged for a closer look

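Pomc (3.05) and Prl (4.38) are listed because the effect differed between the tissues by the test of the difference itself. For 8 others of the 128 named genes, 1 of the 4 mouse differences lay far from the rest. Chance meets this criterion in about 1 in 20 groups, so several such genes can arise by chance among so many. Mat1a was at 2.228 in mouse 3 against 0.353 to 0.657 in the others. Phf24 was at 1.454 in mouse 2 against 0.683 to 0.814. Hspb7, a small heat shock protein of muscle, was at 0.755 in mouse 3 against 0.375 to 0.406. Ttc41 was at -0.538 in mouse 3 against -1.276 to -1.173, and Mgmt was at -1.074 in mouse 3 against -0.632 to -0.587. Rpl8 was at -0.226 in mouse 1 against -0.721 to -0.652. The circadian deubiquitinase gene Usp2 was at 0.002 in mouse 4 against -0.550 to -0.460. Bcl6, a repressor with higher levels in male liver, was at 0.216 in mouse 4 against -1.006 to -0.818.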

How the results depend on the processing

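Genes past the threshold numbered 2 with the paired fit and also 2 with no replicate block, after centring each array, after scaling and with robust variance moderation, and 2 when differences were taken within each probe (chosen after seeing the data). The count was 1 with values over 10 in size kept, on the Cy5 arrays only (Gh), on the Cy3 arrays only (Prl), with genes measured in all 4 mice only and with names at no row offset, and it ranged from 1 to 2 over mice left out (1 without mouse 2, 3 or 4, which leaves Prl untested). For probes the counts were 2 with no replicate block, with robust moderation and after scaling, 1 with large values kept, after centring, on the Cy3 arrays and with 4 mice required, 0 on the Cy5 arrays, and 0 to 2 over mice left out.

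Medians of the lists of genes used by both tissues moved as follows. After scaling, chaperones were at -0.064, the tricarboxylic acid cycle at -0.181 and immediate early genes at 0.065. On the Cy5 arrays, the mitochondrial ribosome and import were at -0.228, interferon genes at -0.099 and immediate early genes at -0.112. On the Cy3 arrays, interferon genes were at -0.399, clock genes at 0.066 and cell cycle genes at 0.120. With names at no row offset, the medians were -0.077 for oxidative phosphorylation, -0.002 for ribosomal proteins, 0.046 for the proteasome, -0.066 for chaperones, -0.051 for the tricarboxylic acid cycle, 0.167 for cholesterol synthesis, -0.096 for interferon genes, -0.068 for clock genes, -0.070 for immediate early genes and 0.012 for the unfolded protein response. Over mice left out, clock genes ranged from -0.062 to 0.101 and immediate early genes from -0.052 to 0.141, oxidative phosphorylation from -0.345 to -0.213 and ribosomal proteins from -0.300 to -0.203. Other lists moved as well, and not all are given here. Bile acid genes were at 0.024 without mouse 4 and male-biased liver genes at -0.406 without mouse 3. Synaptic genes were at -0.092 without mouse 1 and lymphocyte markers at 0.115 without mouse 2. Neuropeptides were at -0.194 without mouse 1 and 0.100 without mouse 3. The alternative without the offset applies to counts and lists, since a gene's own value would come from another probe.

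Of 128 named genes, 23 changed sign under some alternative, 16 of them on the Cy5 arrays: S100a8 (-0.148), Cfb (0.615), Ugt1a6a (0.013), Syngr1 (-0.241), Rgs9 (-0.194), Chgb (-0.130), Fgfr3 (-0.452), Igf2 (-1.235), Cd5 (-0.697), Col3a1 (-0.210), Krt7 (-0.070), Tff2 (0.453), Pla2g1b (0.170), Per2 (0.061), Nr1d1 (-0.109) and Penk (-0.446). On the Cy3 arrays these were Mrps16 (0.296), Ppargc1a (0.329), Drd2 (0.226) and Alb (-0.866). With large values kept they were Ceacam2 (-1.258), Vwf (0.276) and Cd2 (-0.494). Ppargc1a was at 0.001 after centring and Drd2 at 0.096 after scaling. Over mice left out, Ppargc1a ranged from -0.105 to 0.086, Penk from -0.013 to 0.461, Drd2 from -0.419 to 0.179 and Alb from -0.453 to 0.562. Without mouse 2, Drd2 was at 0.144. The causes were not tested.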
